A study of Homo sapiens with 12 samples.

Results

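The mRNA levels of 40 DNA repair genes were followed in HCT116 cells, a human colon cancer cell line, after inhibition of topoisomerase 1 (TOP1) or topoisomerase 2 (TOP2). The 40 genes were taken from a written list of homologous recombination, Fanconi, checkpoint and strand-break repair genes, and they are 40 of the 26364 gene symbols counted. All 40 had reads in every one of the 12 libraries (the lowest count was 23 reads) and all 40 passed the filter on low counts in every comparison. The cells were HCT116 WT cells or clone 32, a p65-deficient clone. They were kept without inhibitor or exposed to CPT, which inhibits TOP1, or ICRF193, which inhibits TOP2, each at 5 µM and, by the labels, for 2 h. In each case the cells either had no TNFα (0 h) or had 20 ng/mL of it for 1 h. The study describes the 2 h as a pre-treatment before TNFα was added. Exposure to the inhibitor may thus have been longer in the libraries with 1 h TNFα. This gives 12 conditions with 1 library each. The study's methods name both untreated cells and cells given vehicle, and the labels do not say which the libraries without inhibitor were. An effect of vehicle may thus not be told apart from that of an inhibitor. The labels of the clone 32 libraries read "shRNA p65", whereas the study's methods describe CRISPR-Cas9 and a clone grown from one cell, so any difference between clone 32 and WT cells is a difference of that clone.

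In homologous recombination, *BRCA1* with its partner *BARD1* acts at broken DNA, *PALB2* links *BRCA1* to *BRCA2*, and *BRCA2* and the recombination paralogs act in the steps that follow. The Fanconi core complex marks FANCD2 and FANCI where a replication fork is blocked, and the kinases ATM and ATR with their mediators hold the cell cycle while repair proceeds. CPT traps TOP1 on the DNA, and cells that replicate such DNA are known to rely on these pathways, while *PARP1* and *XRCC1* act at single-strand breaks. ICRF193 blocks TOP2 at the step after strand passage.

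Counted reads ranged from 8101212 to 22051046 per library. The 4 shallowest libraries (8101212 to 8755001 reads) were all from clone 32, namely the 3 with 1 h TNFα and the one with ICRF193 at 0 h, and the others had at least 16300210 reads. The repair genes took between 0.301% and 0.362% of the counted reads. *RELA*, the gene of p65, had normalized counts of 694 to 909 in WT cells and 548 to 673 in clone 32, and no library of clone 32 reached the lowest WT library. Of 8 colon epithelial markers, 6 were well expressed, *VIL1* had at most 4 reads and *CDX1* had none. Of 8 markers of other cell types, *CD3E* had no read and *PTPRC*, *PECAM1*, *COL1A2* and *ALB* at most 3 reads in a library. *CD14* had at most 21 reads, *DES* at most 43 and *COL1A1* at most 227. The summed normalized count of these 8 markers was 112 to 153 without inhibitor, 155 to 243 with CPT and 106 to 123 with ICRF193, mostly from *COL1A1*. The part of this shift in the results below was not tested. A normalized count is a read count scaled by the DESeq2 size factor of its library. It measures a share of the RNA, so fewer cells expressing a gene and less RNA per cell cannot be told apart.

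CPT lowered 16 of the 40 repair genes and raised 1, so that 42.5% of the list was called. Among all 13993 genes tested, 25.1% were lowered and 23.2% were raised, 48.3% in all. A gene was called lowered or raised when edgeR's quasi-likelihood test, with the 4 combinations of cell line and TNFα as matched pairs, gave a Benjamini-Hochberg adjusted p under 0.05 over all genes tested. No condition has a replicate, so these p-values rest on how well the 4 pairs agreed, but not on that alone. edgeR moderated the variance of each gene toward that of the other genes tested, which allows very small p-values from few pairs. Calls in 1 cell line alone rest on fewer pairs and lean on this more. The 16 lowered genes are 40% of the list. The median fitted CPT log2 fold change over the list was -0.13, against 0.02 over all genes, and 31 of the 40 genes lay below 0. In a count that needs no fit, all 4 CPT libraries were below all 4 libraries without inhibitor for 13 repair genes (20.2% of all genes tested), and all 4 were above for *PARP1* and *XRCC1* (17.2% of all genes tested). The CPT log2 ratio was below 0 in each of the 4 pairs for 20 repair genes (28.9% of all genes with a ratio in every pair) and above 0 in each for 3 (30.1%). Of the 17 called genes, 10 were called under each of the 13 alternative analyses, and all 17 kept their direction in each of them.

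**Figure D1:**
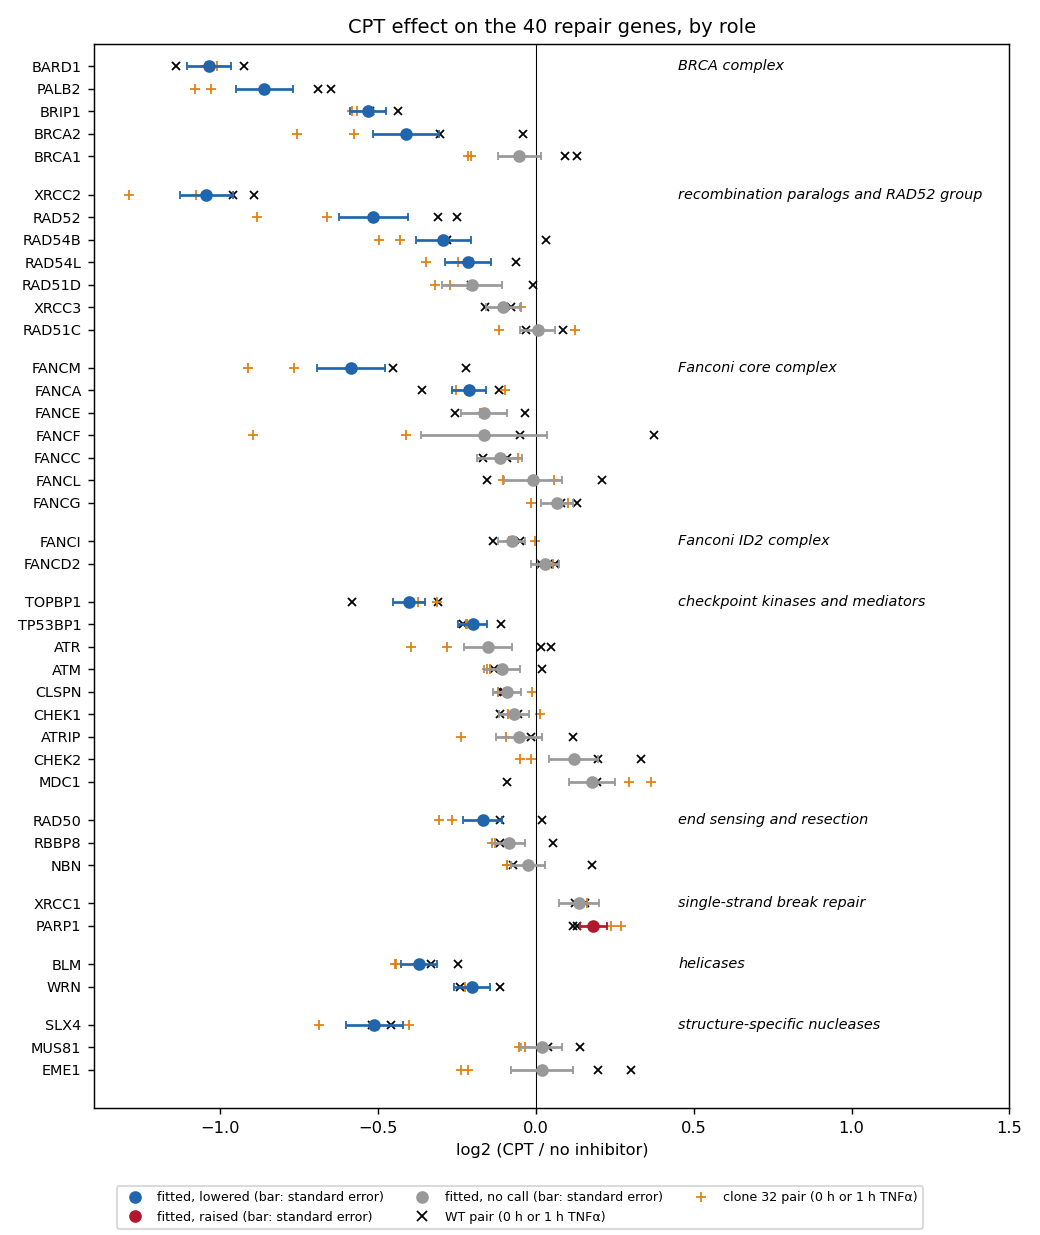
The fitted CPT log2 fold change of each of the 40 repair genes on the horizontal axis, with its standard error as a bar, the genes being grouped by role on the vertical axis. Crosses are the log2 ratios of the 2 WT pairs and plus signs those of the 2 clone 32 pairs. *XRCC2* and *BARD1* lie near -1, most other genes between -0.6 and 0.2, and only *PARP1* was raised.

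The genes lowered most belong to the BRCA complex and the recombination paralogs. *XRCC2*, *BARD1* and *PALB2* fell to 48.5%, 48.8% and 55.1% of the level without inhibitor. The sequences before their start sites are shown with that of *RAD51C*, the paralog whose CPT log2 fold change was closest to 0. They are the 150 bases before each start in RefSeq (GRCh38.p14), printed 5′ to 3′ on the strand of the gene, with the searched motifs in capitals. The positions are chr7:152676142-152676291 for *XRCC2* (minus strand), chr2:214809684-214809833 for *BARD1* (minus strand), chr16:23641311-23641460 for *PALB2* (minus strand) and chr17:58692423-58692572 for *RAD51C* (plus strand).
XRCC2: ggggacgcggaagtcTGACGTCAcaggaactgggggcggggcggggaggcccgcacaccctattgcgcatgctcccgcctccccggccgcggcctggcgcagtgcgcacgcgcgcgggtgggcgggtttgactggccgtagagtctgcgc
BARD1: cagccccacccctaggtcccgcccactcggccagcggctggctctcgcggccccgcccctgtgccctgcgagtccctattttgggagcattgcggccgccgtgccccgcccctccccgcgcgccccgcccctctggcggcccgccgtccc
PALB2: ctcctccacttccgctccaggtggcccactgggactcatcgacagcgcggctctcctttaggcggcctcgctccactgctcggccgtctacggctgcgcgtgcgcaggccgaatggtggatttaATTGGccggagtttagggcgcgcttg
RAD51C: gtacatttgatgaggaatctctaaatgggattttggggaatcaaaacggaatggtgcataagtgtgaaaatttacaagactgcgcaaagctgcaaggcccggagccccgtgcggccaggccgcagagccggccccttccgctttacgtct
The capitals in *XRCC2* are the CRE letters TGACGTCA and those in *PALB2* are CCAAT read on the other strand. *BARD1* and *RAD51C* hold none of the searched letters in these 150 bases. In the whole window of 300 bases (250 before the start and 50 after it) *BARD1* holds none, while *RAD51C* holds the CRE. Of the 40 genes, 36 had such a window in RefSeq, the others being *RAD54B*, *NBN*, *WRN* and *FANCI*. E2F sites (TTTGGCGC, TTTCCCGC, TTTGCCGC or TTTCGCGC, on either strand) were found in 6 of the 36 windows (16.7%), against 3.33% of all 27305 windows. CCAAT was found in 17 of 36 (47.2%, against 35.7%), the CHR letters TTTGAA in 5 (13.9%, against 15.4%) and the CRE in 2 (5.56%, against 1.98%). The 2 genes with the CRE are *XRCC2*, which was lowered, and *RAD51C*, which was not called. *XRCC2* also has an E2F site, outside the printed bases. Split by the CPT call, E2F sites were found in 3 of the 14 lowered genes with a window and in 3 of the other 22, and CCAAT in 7 of 14 and 10 of 22. A match is a description of the letters, and a RefSeq start need not be the start used in these cells. The window of *BRCA1*, which is among the 36 and holds none of the letters, starts far upstream of its hg19 gene model.

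Within the BRCA group, 4 of 5 genes were lowered by CPT. Values in each library are given as normalized counts in the order WT at 0 h, WT at 1 h, clone 32 at 0 h and clone 32 at 1 h TNFα. *BARD1*, which forms a ubiquitin ligase with BRCA1 (hg19 chromosome 2, 215590370 to 215674435), had 618, 650, 623 and 620 without inhibitor. It had 326, 295, 309 and 300 with CPT, and 628, 635, 658 and 610 with ICRF193. The 4 CPT libraries formed a tight cluster below all 8 others, with means of 307 ± 13.5 (SD, n = 4 libraries of different conditions) with CPT, 628 ± 14.98 without inhibitor and 633 ± 20.0 with ICRF193. The fitted CPT log2 fold change of *BARD1* was -1.04 (standard error 0.07, adjusted p = 7.3e-07 by edgeR's quasi-likelihood test).

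*PALB2*, the bridge between BRCA1 and BRCA2 (hg19 chromosome 16, 23614483 to 23652678), had 576, 544, 652 and 721 without inhibitor. With CPT it had 357, 347, 308 and 353, and with ICRF193 591, 611, 713 and 698. The CPT libraries were again below all others. Without inhibitor and with ICRF193 the clone 32 libraries were above the WT libraries, and with CPT the cell lines overlapped. The fitted CPT log2 fold change of *PALB2* was -0.86 (standard error 0.09, adjusted p = 1.7e-05), with ratios of -0.69 and -0.65 in the WT pairs and -1.08 and -1.03 in the clone 32 pairs.

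*BRIP1*, a helicase that binds BRCA1, had 935, 973, 970 and 1127 without inhibitor, 690, 676, 655 and 753 with CPT, and 816, 907, 966 and 1001 with ICRF193. All CPT libraries were below all others, and the CPT log2 fold change was -0.53 (standard error 0.06, adjusted p = 2.0e-05). *BRIP1* also lay below its pair without inhibitor in all 4 ICRF193 pairs, by 0.01 to 0.20 on the log2 scale, with an adjusted p of 0.21. *BRCA2* was lowered by 0.41 on average (standard error 0.10, adjusted p = 0.0068), but not in the WT pairs alone (-0.19, adjusted p = 0.073). *BRCA1* itself was not called (-0.05, standard error 0.07, adjusted p = 0.55).

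*BARD1* and *BRCA1*, whose proteins form 1 complex, thus moved unequally with CPT. In each pair of libraries the log2 ratio of *BARD1* was lower than that of *BRCA1*, by 0.80 to 1.23, with a mean difference of -0.98 ± 0.20 (SD, n = 4 pairs). The exact two-sided sign-flip p was 0.125, the smallest that 4 pairs can give. *PALB2* lay below *BRCA2* in all 4 pairs (mean difference -0.44 ± 0.17), *BRIP1* below *BRCA1* (-0.48 ± 0.13), *TOPBP1* below *CLSPN* (-0.31 ± 0.12), *RAD50* below *NBN* (-0.15 ± 0.08) and *FANCD2* above *FANCI* (0.10 ± 0.07), all with the same exact permutation p of 0.125. Of 11 partner pairs compared, which were chosen after the values were known, 7 gave this p, and with 4 pairs none could pass 0.05. The other 4, *XRCC3* with *RAD51C*, *FANCM* with *FANCA*, *ATR* with *ATRIP* and *EME1* with *MUS81*, had exact p of 0.25 to 0.75.

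Among the recombination paralogs and the RAD52 group, 4 of 7 were lowered. *XRCC2* (hg19 chromosome 7, 152343587 to 152373250), a recombination paralog that works with RAD51D, had 547, 576, 521 and 593 without inhibitor. It had 295, 296, 247 and 243 with CPT, and 601, 534, 519 and 570 with ICRF193. The CPT libraries of clone 32 were the lowest of all 12, and every CPT library was below every other. Its CPT log2 fold change was -1.04 (standard error 0.08, adjusted p = 2.2e-06), the largest decrease of the 40 genes in the fit. *RAD51D*, the partner of *XRCC2*, lay below 0 in all 4 pairs but was not called (-0.20, standard error 0.10, adjusted p = 0.10), and *XRCC2* was below it by 0.85 ± 0.16 on the log2 scale (n = 4 pairs, exact two-sided p = 0.125).

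*RAD52*, which anneals DNA strands, was lowered by 0.52 (standard error 0.11, adjusted p = 0.0026), with ratios of -0.31 and -0.25 in WT cells and -0.66 and -0.88 in clone 32. *RAD54B* (-0.29, adjusted p = 0.017) and *RAD54L* (-0.22, adjusted p = 0.029), motor proteins that act on DNA in recombination, were lowered less. *RAD54B* was not called without the clone 32 pair at 1 h (adjusted p = 0.060) or in WT pairs alone (-0.14, adjusted p = 0.18). *RAD54L* was not called without the clone 32 pair at 0 h (adjusted p = 0.061), without that at 1 h (0.10), without the WT pair at 0 h (0.058), in the WT pairs alone (0.18) or by DESeq2 (0.086).

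*RAD51C*, a paralog present in both paralog complexes, had 1312, 1377, 1251 and 1195 without inhibitor. It had 1393, 1347, 1153 and 1301 with CPT, and 1299, 1351, 1201 and 1118 with ICRF193. The groups overlapped throughout, and the CPT log2 fold change was 0.00 (standard error 0.06, adjusted p = 0.95). *XRCC3*, its partner, was not called either (-0.11). Per kb of exon, *RAD51C* had the second highest level of the 40 genes without inhibitor (848 normalized counts per kb, after *PARP1* with 1877), while *XRCC2* had 182 and *BARD1* 114.

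**Figure D2:**
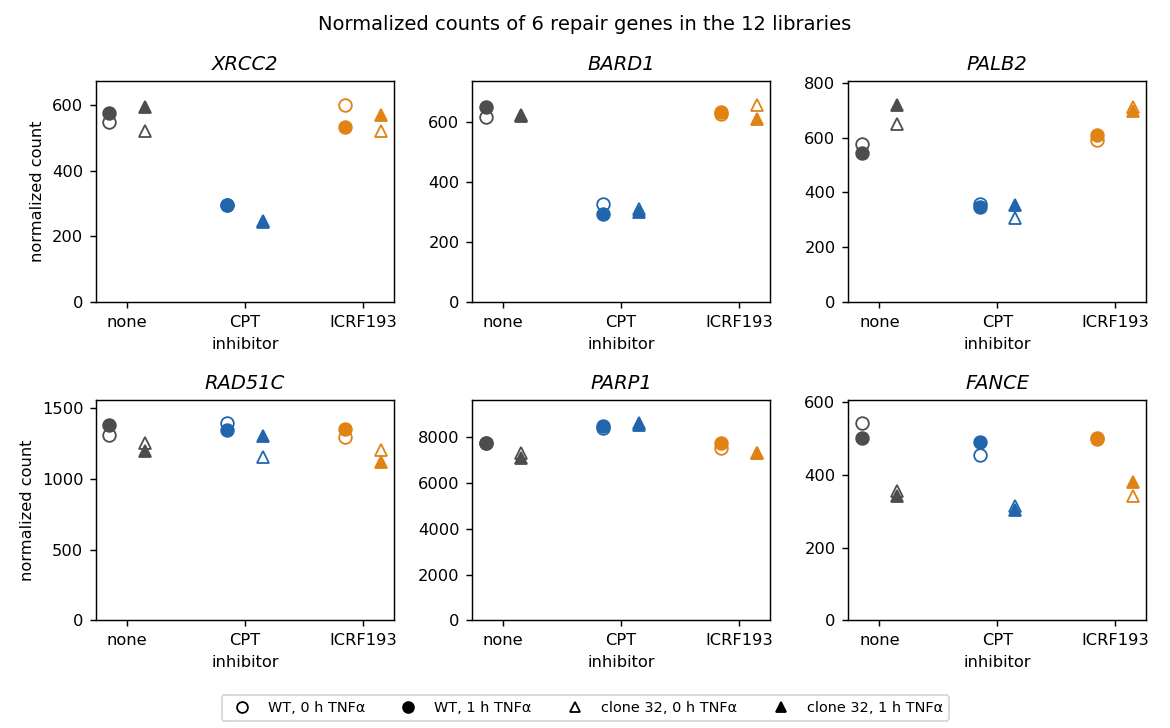
Normalized counts (vertical axes, from 0) of 6 repair genes in the 12 libraries by inhibitor, with circles for WT cells, triangles for clone 32, open symbols for 0 h and filled symbols for 1 h TNFα. With CPT, *XRCC2*, *BARD1* and *PALB2* lie below all other libraries and *PARP1* above them, *RAD51C* overlaps, and *FANCE* is lower in clone 32 with every inhibitor.

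Of the 7 Fanconi core complex genes, *FANCM* and *FANCA* were lowered by CPT. *FANCM*, the translocase that brings the core complex to DNA (hg19 chromosome 14, 45605142 to 45670093), had 452, 512, 611 and 615 without inhibitor. With CPT it had 388, 374, 325 and 361, and with ICRF193 490, 502, 614 and 581. All CPT libraries were below all others, although clone 32 started higher and ended lower than WT cells. The fitted log2 fold change was -0.59 (standard error 0.11, adjusted p = 0.0010). *FANCA*, a scaffold of the core complex, was lowered by 0.21 (standard error 0.05, adjusted p = 0.0078).

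*FANCL*, the ubiquitin ligase subunit, had 260, 216, 266 and 294 without inhibitor, 233, 250, 247 and 306 with CPT, and 261, 267, 246 and 292 with ICRF193. These groups overlapped, and its CPT log2 fold change was -0.01 (standard error 0.09, adjusted p = 0.94). *FANCE* and *FANCF* (each -0.16), *FANCC* (-0.11) and *FANCG* (0.07) were not called. *FANCF* had the lowest level of the list (37.5 to 74.8 normalized counts) and the widest spread between pairs (log2 ratios from -0.90 to 0.37), so that its change was not measured well. Neither member of the ID2 complex, the substrate of the core complex, was called, with log2 fold changes of 0.03 for *FANCD2* and -0.08 for *FANCI*.

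Among the 9 checkpoint genes, the mediators *TOPBP1* (-0.40, standard error 0.05, adjusted p = 8.0e-05) and *TP53BP1* (-0.20, standard error 0.05, adjusted p = 0.0043) were lowered by CPT. *TOPBP1*, the activator of ATR, fell in every pair, by 0.31 and 0.58 in WT cells and by 0.31 and 0.37 in clone 32. *TP53BP1*, which shields broken ends from resection, was not called without the pairing (adjusted p = 0.052). The kinases were not called, with fitted log2 fold changes of -0.15 for *ATR*, -0.11 for *ATM*, -0.07 for *CHEK1* and 0.12 for *CHEK2*. Likewise not called were *CLSPN* (-0.09) and *ATRIP* (-0.05). In the WT pairs alone *CHEK2* was called raised (0.25, adjusted p = 0.018), while its ratios in clone 32 were -0.02 and -0.05. *ATR* and *ATM* were called lowered in the clone 32 pairs alone. *ATR* was also called without the filter on low counts, and *ATM* without the WT pair at 0 h. *MDC1*, which binds phosphorylated histone at breaks, had a log2 fold change of 0.18 with an adjusted p of 0.067. It was called raised when counts were thinned to the shallowest library (0.26, adjusted p = 0.016), without the WT pair at 0 h (0.27, adjusted p = 0.0067) and in the clone 32 pairs alone (0.32, adjusted p = 0.00022). The counts of *MDC1* are uncertain, because the annotation lists it on 8 contigs, chromosome 6 and its alternative haplotypes.

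Of the end sensing and resection genes, *RAD50* was lowered (-0.17, standard error 0.06, adjusted p = 0.041), and *NBN* (-0.03) and *RBBP8* (-0.09) were not called. *RAD50* was called under 6 of the 13 alternatives only, and its log2 fold change in the WT pairs alone was -0.07 (adjusted p = 0.49). Both helicases were lowered. *BLM*, which dissolves recombination intermediates, fell by 0.37 on the log2 scale (standard error 0.06, adjusted p = 0.00032). *WRN* fell by 0.20 (standard error 0.06, adjusted p = 0.014), and was not called by DESeq2 (adjusted p = 0.051), without the pairing (0.070) or without the WT pair at 1 h (0.067).

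*SLX4*, the scaffold that gathers structure-specific nucleases, was lowered by CPT. It had 251, 224, 252 and 287 without inhibitor, 183, 156, 190 and 178 with CPT, and 259, 222, 300 and 264 with ICRF193. All CPT libraries were below all others, and the log2 fold change was -0.51 (standard error 0.09, adjusted p = 0.00084). *MUS81*, a nuclease bound by SLX4, had 594, 596, 673 and 675 without inhibitor, 654, 612, 648 and 658 with CPT, and 572, 571, 592 and 616 with ICRF193. The levels with CPT lay within the range without inhibitor (0.02, standard error 0.06, adjusted p = 0.84). *EME1*, the partner of MUS81, had a fitted value of 0.02 that averaged a higher level in WT cells and a lower one in clone 32.

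Single-strand break repair held the 1 gene raised by CPT. *PARP1* (hg19 chromosome 1, 226548392 to 226595801), which senses strand breaks, had 7761, 7759, 7302 and 7091 without inhibitor. It had 8414, 8493, 8616 and 8543 with CPT, and 7512, 7744, 7300 and 7323 with ICRF193. All CPT libraries were above all others, and the rise was small, to 113% of the level without inhibitor (log2 fold change 0.18, standard error 0.04, adjusted p = 0.0047). Over all genes tested the upper quartile of the CPT log2 fold change was 0.20, above the value of *PARP1*. *PARP1* was not called without the clone 32 pair at 0 h (0.15, adjusted p = 0.057), without that at 1 h (0.15, adjusted p = 0.078) or in the WT pairs alone (0.10, adjusted p = 0.17). *XRCC1*, the scaffold at single-strand breaks, had log2 ratios of 0.12 to 0.16 in the 4 pairs but was not called (fitted 0.14, adjusted p = 0.098).

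With ICRF193, no repair gene was called against no inhibitor, where 2.17% of all 13631 genes tested were called. At an unadjusted p under 0.05 there were 7 repair genes (17.5%, against 11.5% of all genes), and DESeq2 also called none. The fitted log2 fold changes ran from -0.15 (*RAD51D*) to 0.13 (*BRCA2*), with a median of 0.03, and the smallest adjusted p was 0.20 (*BRCA2*). The ICRF193 and CPT comparisons share the libraries without inhibitor, so the inhibitors were also compared with each other. There, 20 repair genes were called (46.4% of all 13900 genes tested), 19 lower with CPT than with ICRF193 (25.5% of all genes) and 1 higher (20.9%). Of these 20, 15 were called under every alternative. The differences were largest for *BARD1* (-1.06, standard error 0.07, adjusted p = 9.1e-08), *XRCC2* (-1.05, standard error 0.08, adjusted p = 3.2e-07), *PALB2* (-0.95, standard error 0.09, adjusted p = 1.2e-06), *FANCM* (-0.60, standard error 0.09, adjusted p = 0.00018) and *SLX4* (-0.58, standard error 0.09, adjusted p = 0.00023). *PARP1* was the gene that was higher (0.17, standard error 0.05, adjusted p = 0.013), but it was not called without the clone 32 pair at 0 h or that at 1 h.

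**Figure D3:**
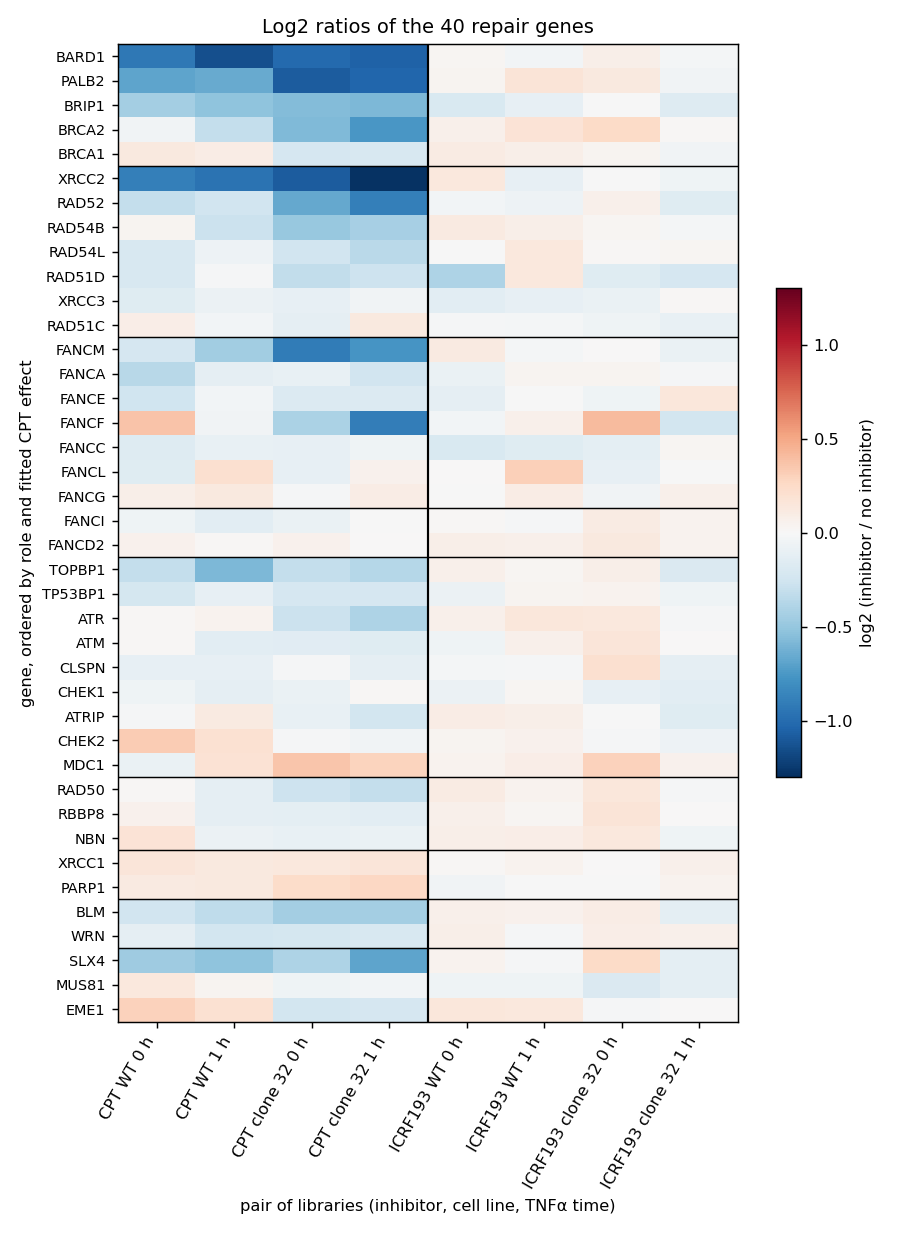
Log2 ratio of each of the 40 repair genes (rows, grouped by role) in the 4 CPT pairs and the 4 ICRF193 pairs (columns), each against the library without inhibitor of the same cell line and TNFα time. Blue is lower and red is higher with the inhibitor. The deep blue cells of *BARD1*, *PALB2* and *XRCC2* lie in the CPT columns. The ICRF193 ratios shown run from -0.40 (*RAD51D*, WT at 0 h) to 0.41 (*FANCF*, clone 32 at 0 h). The fitted ICRF193 values, which are not drawn, stay between -0.15 and 0.13.

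The CPT effect on some repair genes differed between WT cells and clone 32. The median CPT log2 ratio over the 40 genes was -0.07 and -0.10 in the WT pairs and -0.20 and -0.21 in the clone 32 pairs, while that of all genes lay between 0.01 and 0.02 in all 4. Tested as an interaction of CPT and cell line, 5 repair genes were called, all with a lower CPT effect in clone 32, where 4.51% of all 13993 genes were called, 2.22% in that direction and 2.29% in the other. *FANCM* (described above) differed by -0.54 (standard error 0.13, adjusted p = 0.026), with CPT log2 ratios of -0.22 and -0.45 in WT cells and -0.91 and -0.77 in clone 32.

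*BRCA2*, which acts in recombination (hg19 chromosome 13, 32889617 to 32973809), had 618, 627, 663 and 894 without inhibitor. It had 600, 507, 444 and 529 with CPT, and 648, 708, 790 and 902 with ICRF193. The level without inhibitor was highest in clone 32 at 1 h TNFα, a shallow library, and the level with CPT was lowest in clone 32 at 0 h. The CPT effect differed by -0.51 (standard error 0.12, adjusted p = 0.026).

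*ATR*, the kinase of stalled forks, had 1494, 1460, 1496 and 1718 without inhibitor, 1511, 1510, 1230 and 1304 with CPT, and 1563, 1616, 1649 and 1696 with ICRF193. In WT cells the CPT libraries were level with those without inhibitor, and in clone 32 they were the lowest of all 12 (difference -0.39, standard error 0.09, adjusted p = 0.020). *BRCA1* had 1437, 1447, 1613 and 1667 without inhibitor, 1571, 1542, 1388 and 1444 with CPT, and 1551, 1527, 1650 and 1619 with ICRF193. Its CPT log2 ratios were 0.13 and 0.09 in WT cells and -0.22 and -0.21 in clone 32 (difference -0.35, standard error 0.08, adjusted p = 0.029).

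*EME1* had 477, 453, 555 and 505 without inhibitor, 588, 519, 471 and 435 with CPT, and 530, 499, 549 and 505 with ICRF193. It was higher with CPT in both WT pairs (0.30 and 0.20) and lower in both clone 32 pairs (-0.24 and -0.22), a difference of -0.50 (standard error 0.11, adjusted p = 0.021). Within the WT pairs alone it was raised (0.23, adjusted p = 0.037) and within the clone 32 pairs alone it was lowered (-0.25, adjusted p = 0.0097). All 5 interactions kept their sign in the 11 alternatives, but none was called in all of them. DESeq2 called none (adjusted p from 0.23 to 0.39), the fit without the pairing called only *FANCM* of the 5, and thinned counts only *BRCA2*. Leaving out the clone 32 pair at 0 h left *BRCA2* called and leaving out that at 1 h left *FANCM*. Without the WT pair at 0 h, *EME1*, *ATR* and *BRCA1* were called. Without the WT pair at 1 h all 5 were called, among 12 repair genes in all, where 11.4% of all genes were called. The 2 libraries of clone 32 at 1 h that enter here are shallow, and depth and TNFα cannot be told apart within clone 32.

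**Figure D4:**
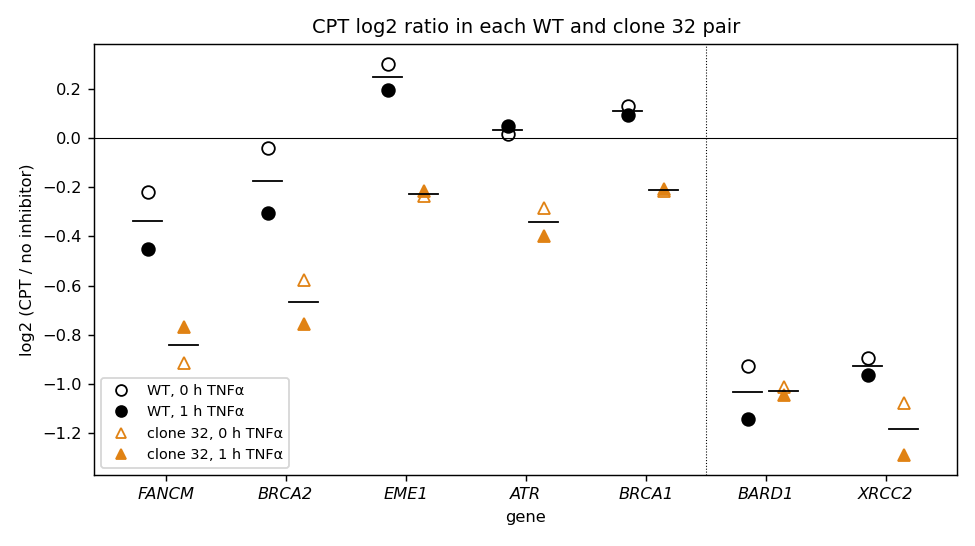
CPT log2 ratio (vertical axis) in each of the 4 pairs for the 5 genes whose CPT effect differed between the cell lines, with *BARD1* and *XRCC2* on the right of the dotted line. Circles are WT pairs, triangles clone 32 pairs, open symbols 0 h and filled symbols 1 h TNFα, and short lines are the mean of the 2 pairs. For *EME1*, *ATR* and *BRCA1* the WT pairs lie above 0 and the clone 32 pairs below it.

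Between clone 32 and WT cells, compared in 6 pairs that differ in the cell line, 9 repair genes (22.5%) were called, where 32.1% of all 13730 genes tested were called. Of these, 3 were higher in clone 32 (15.2% of all genes) and 6 were lower (16.9%). *FANCE*, a core complex subunit that binds FANCD2 (hg19 chromosome 6, 35420138 to 35434881), was the most different. It had a lowest, median and highest normalized count of 454, 500 and 542 in the 6 WT libraries and of 304, 342 and 381 in the 6 clone 32 libraries. The groups did not overlap, which held for 4.92% of all genes tested in this direction, and the log2 fold change was -0.54 (standard error 0.06, adjusted p = 1.2e-05). *FANCE* was the one member called under all 14 alternatives.

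*FANCG*, a further core subunit, was higher in clone 32, with 1184, 1249 and 1306 in WT cells and 1322, 1402 and 1433 in clone 32. These groups did not overlap either (4.03% of all genes in this direction), but the difference was small (0.16, standard error 0.04, adjusted p = 0.0056). *TOPBP1* had 2341, 3302 and 3564 in WT cells and 2232, 2751 and 3098 in clone 32 (-0.19, standard error 0.04, adjusted p = 0.0054). *XRCC3* had 856, 898 and 959 in WT cells and 742, 790 and 866 in clone 32 (-0.18, standard error 0.05, adjusted p = 0.012). Both pairs of ranges overlapped.

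*ATM*, the kinase at DNA breaks, had 884, 996 and 1029 in WT cells and 982, 1133 and 1212 in clone 32 (0.19, standard error 0.05, adjusted p = 0.017). It was not called when the pair with ICRF193 at 0 h, that with ICRF193 at 1 h or that without inhibitor at 1 h was left out (adjusted p from 0.058 to 0.068). *TP53BP1*, *RAD51C* and *RBBP8* were lower by 0.14 to 0.16 and *FANCI* higher by 0.11. The number called depended on the pairs used. It was 5 without the pair with ICRF193 at 1 h (23.1% of all genes), 19 without the pair with CPT at 0 h (37.6%) and 5 without the pairing (14.9%). In the 2 pairs of similar depth (0 h TNFα, without inhibitor and with CPT) it was 1, *FANCE* (-0.57, standard error 0.14, adjusted p = 0.034), where 3.65% of all genes were called.

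TNFα for 1 h gave no call among the repair genes in 6 pairs, where 0.189% of all 13730 genes tested were called. At an unadjusted p under 0.05 there were 5 (12.5%, against 5.43% of all genes), DESeq2 called none, and the smallest adjusted p was 0.77 (*RAD54B*, log2 fold change 0.13). The log2 fold changes ran from -0.17 to 0.13. The study reports that TNFα induction was almost lost in p65-deficient cells and strongly reduced by CPT, so pooling such pairs can dilute a TNFα effect. In the WT pairs alone no repair gene was called either, where 0.642% of all genes were called. Likewise, no repair gene had a CPT effect that differed between 0 h and 1 h TNFα by edgeR or DESeq2, and none had an unadjusted p under 0.05 by edgeR, where 1 of 13993 genes (0.00715%) was called. The median standard error of this difference over the 40 genes was 0.15, so small differences could be missed. Where an inhibitor was present, TNFα may not be told apart from a longer exposure to the inhibitor.

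The repair genes lowered by CPT had a longer median span. From first to last exon it was 81.6 kb (16 genes), against 44.6 kb for the other 24. None of the 8 genes under 20 kb was lowered, against 17.9% of all genes of that span, 4 of 9 between 20 and 50 kb (27.9%), 8 of 16 between 50 and 100 kb (31.8%) and 4 of 7 of at least 100 kb (34.5%). Across the 40 genes, Spearman's rho of the fitted CPT log2 fold change and the span was -0.31, and across 13984 genes tested with a span it was -0.32. The values are across genes that share the same libraries, which are not independent replicates. Within pairs, rho over the 40 genes ranged from -0.39 to -0.18. With exonic length in place of the span it was -0.37, and with mean reads in place of the span it was 0.34. Span and mean reads were not separated. The order by span was loose, since *XRCC2* (29.7 kb) and *PALB2* (38.2 kb) fell far more than the fitted -0.11 of *FANCC* (219 kb). *BARD1* (84.1 kb) and *BRCA1* (81.2 kb) are of like span and had -1.04 and -0.05.

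**Figure D5:**
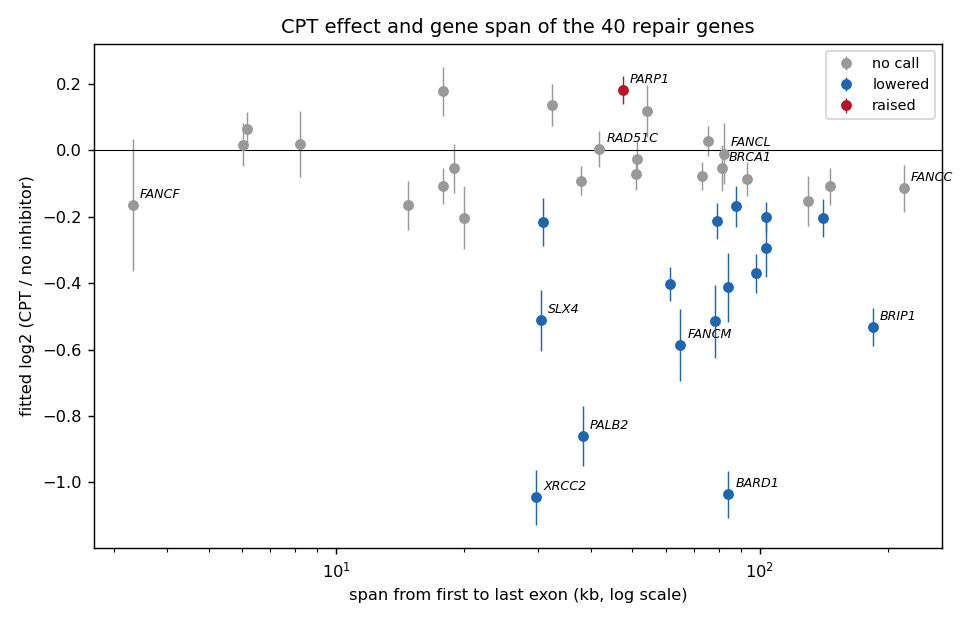
Fitted CPT log2 fold change (vertical axis, bars are standard errors) of the 40 repair genes against the span from first to last exon in kb (horizontal axis, log scale). No gene under 20 kb was lowered, and above 20 kb lowered genes and genes with no call lie side by side.

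Other genes of the same pathways were counted from a list of 73, of which 71 were tested. CPT raised 15 (21.1%) and lowered 21 (29.6%) of them, near the 23.2% and 25.1% of all genes tested, with a median log2 fold change of -0.0011. Of 16 further checkpoint genes, 10 were lowered and 1 raised. *WEE1*, a kinase that holds back mitotic entry, fell by 1.17 on the log2 scale (standard error 0.07, adjusted p = 1.9e-07). *RNF168*, a ubiquitin ligase that recruits 53BP1, fell by 1.09 (standard error 0.06, adjusted p = 1.8e-07), and *CDC25A*, a phosphatase that drives the cell cycle, by 0.997 (standard error 0.05, adjusted p = 5.1e-08). The genes raised most were *RMI2* (0.43, standard error 0.10, adjusted p = 0.0050), a partner of BLM, *SHFM1* (0.28, standard error 0.06, adjusted p = 0.0022), which binds BRCA2, and *RPA3* (0.27, standard error 0.08, adjusted p = 0.014), a subunit of the single-strand binding protein. Of 11 further Fanconi genes 2 were lowered and 2 raised, and of 9 further recombination genes 1 was lowered and 1 raised.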

How the data were processed

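Total RNA of 12 HCT116 cultures was sequenced, 1 library for each condition. The authors used Trimmomatic on the reads and deposited raw counts per gene symbol, made, per the file headers, with featureCounts 1.5.0 on hg19 exons. The submitters' processing notes also name STAR and deepTools. The featureCounts command sets no strand option, so reads of genes that overlap on opposite strands, such as *XRCC3* and *KLC1*, *FANCL* and *VRK2*, *MUS81* and *EFEMP2* or *EME1* and *LRRC59*, are uncertain. Among genes lowered by CPT this holds for *FANCA* with *ZNF276*, *RAD54L* with *LRRC41*, *WRN* with *PURG* and *RAD50* with *TH2LCRR*. Counts of genes that overlap another on the same strand may be uncertain too. Such genes include *RAD54B* with *FSBP*, *RAD51D* with *RAD51L3-RFFL* and *ATRIP* with *TREX1*. Groups were taken from the labels. The members and lists were chosen with earlier results of these data known.

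Counts were divided by DESeq2 1.42.0 size factors over all 12 libraries for normalized counts and log2 ratios of 2 libraries, without a pseudocount. Comparisons used edgeR 4.0.16 (R 4.3.3, limma 3.58.1) with TMM normalization, filterByExpr, the matched pair as a block and Benjamini-Hochberg adjustment over all genes tested, with 0.05 as the threshold. The pairs are not replicates, since each has another cell line, TNFα time or inhibitor, and nothing says that they came from separate cultures. Standard errors are the log2 fold change over the root of the F statistic. All 40 genes were accounted for by their CPT log2 fold change, and values in every library were given for up to 5 genes raised and 5 lowered most by CPT in 1 direction in all 4 pairs, up to 5 called in each other comparison, and the 3 with no call and the CPT log2 fold change closest to 0. Among the other pathway genes, the 3 raised and 3 lowered most were named. A gene of that list is not reported here. Promoter windows were taken from RefSeq (GRCh38.p14). Alternatives were RLE and total-count normalization, no filter and a minimum of 20 reads in any library used, DESeq2, no block, thinned counts, each pair left out, each cell line alone, and exonic length. Figures and tables used Python 3.11.15, pandas 2.3.3, numpy 2.4.6, scipy 1.17.1 and matplotlib 3.10.9.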

Additional observations from a re-analysis of the deposited data

Results flagged for a closer look

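For 5 repair genes, the CPT effect in clone 32 differed from that in WT cells by the interaction of CPT and cell line in edgeR's quasi-likelihood test. The same test called 4.51% of all 13993 genes, 2.22% in this direction and 2.29% in the other. The differences (clone 32 minus WT, log2 scale) were -0.54 for *FANCM*, -0.51 for *BRCA2*, -0.50 for *EME1*, -0.39 for *ATR* and -0.35 for *BRCA1*, with adjusted p from 0.020 to 0.029. For *EME1*, *ATR* and *BRCA1*, both WT pairs lay above 0 and both clone 32 pairs below it. Each was below 0 in every one of the 11 alternatives, but none was called in all of them. DESeq2 called none of the 5, and the fit without the pairing called only *FANCM*. Clone 32 is 1 clone, its libraries at 1 h TNFα were shallow, and with counts thinned to the shallowest library *BRCA2* was the only one of the 5 still called (adjusted p of the other 4 from 0.051 to 0.10). The part of the depth in these differences was not tested in any other way.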

How the results depend on the processing

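The number of repair genes lowered by CPT (12 to 23 over 13 alternatives), called with CPT against ICRF193 (16 to 23 over 13), called with ICRF193 (0 in all 13) and called for CPT by TNFα (0 in all 11) stayed within 1.5 times its value, and no result reversed. The shares of all genes tested moved too. CPT lowered 24.1% of them in the WT pairs alone (12 repair genes) and 27.9% in the clone 32 pairs alone (23). With CPT against ICRF193, 42.9% were called in the WT pairs alone (16) and 46.8% in the clone 32 pairs alone (23). ICRF193 called 0.022% to 2.36% of all genes over the alternatives, and CPT by TNFα 0% to 0.441%. The number raised by CPT, 1, was 2 with thinned counts (22% of all genes), 2 in the WT pairs alone (17.3%) and 2 in the clone 32 pairs alone (24.7%). With each pair left out it was 0 to 2 (15.4% to 21.3% of all genes). In the WT pairs alone the 2 were *CHEK2* and *EME1*, not *PARP1*. With thinned counts and in the clone 32 pairs alone they were *PARP1* and *MDC1*. The median CPT log2 fold change was -0.21 in the clone 32 pairs alone. The number called between clone 32 and WT, 9, was 5 without the replicate block (14.9% of all genes) and 1 in the 2 pairs of similar depth (3.65%). With each pair left out it was 5 to 19 (23.1% to 37.6% of all genes). For TNFα, 1 repair gene was called in the clone 32 pairs alone (*BRCA2*), where 0.498% of all genes were called. With each pair left out it was 0 to 1 (*RAD54B* without the WT pair with CPT), where 0.051% to 0.748% of all genes were called. The number with a CPT effect that differed by cell line, 5, was 0 by DESeq2 (1.06% of all genes) and 1 without the replicate block (2.43%). It was 2 with thinned counts (*BRCA2*, and *CHEK2*, which was not among the 5), where 3.29% of all genes were called. With each pair left out it was 1 to 12 (1.58% to 11.4% of all genes). The causes were not tested. The replicate block is the pair of libraries whose labels differ only in the condition tested, not a replicate number. In the CPT comparison, fitting without it left 13 lowered (20.8% of all genes) and 1 raised (16.2%). Spearman's rho of the CPT effect and the span was -0.34 for the 39 genes with a mean of at least 100 reads. Depth limits *FANCF* most.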
